A study of Homo sapiens with 33 samples.

Results

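Homologous recombination (HR) and Fanconi anemia genes were followed through the cell cycle of HepG2, a human hepatocellular carcinoma line. The 31 genes, listed by name, were each matched by symbol to 1 Ensembl identifier among the 78932 in the files. All 31 had a mean of at least 1 TPM (a length-scaled share of the transcripts of a library) and were among the 17022 genes tested in the sorted libraries. The RNA libraries, all from HepG2 with no drug treatment or genotype named in the labels, came from cells sorted by cell-cycle stage into G1, 4 successive fractions of S phase (S1 to S4) and G2, with 2 libraries each, and from unsorted bulk cells, with 3 libraries. The sorted libraries carry the replicate numbers 2 and 3 and the bulk libraries the numbers 1 to 3. No label states that these numbers are separate cultures, so the spread behind the p-values may be technical. In fits without the replicate number, that spread is only how far libraries of a group vary. Where the number is a term in the fit, it is what remains after fraction and number. The study paired this RNA with replication timing of the same sorted stages, which is not analysed here.

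HR repairs broken DNA and collapsed replication forks by copying the sister chromatid. The MRE11 complex and RBBP8 (CtIP) trim the ends, BRCA1-BARD1, PALB2 and BRCA2 act on the resected single strand, the BCDX2 and CX3 complexes stabilise the protein filament formed there, and motor proteins and helicases such as RAD54L and BLM drive and undo strand exchange. The Fanconi anemia core complex, called to interstrand crosslinks by FANCM, attaches ubiquitin to the FANCD2-FANCI clamp with the E2 enzyme UBE2T. Many of these genes are known E2F targets whose mRNA peaks around S phase in cycling cells.

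Read counts recovered from the steps of the TPM values summed to between 6130772 (S3 replicate 2) and 18492219 (S4 replicate 3) per sorted library and to between 22340749 and 24423265 per bulk library. The next highest sorted library held 9311184. A member had between 29 reads (RAD54B in S1 replicate 2) and 8365 reads (FANCA in S4 replicate 3) in a sorted library. Protein-coding genes of the nucleus took 11.2% to 15.5% of TPM in the sorted libraries and 76.7% to 77.6% in the bulk ones. The labels' protocols name an ultra-low-input total RNA kit for the sorted cells and an mRNA kit for the bulk cells. Of 8 hepatocyte markers, 7 had at least 30.4 TPM in every library and ALB reached 14868 TPM in bulk cells. The exception was APOB, which stood at 0.0362 to 0.318 TPM. The fibroblast markers COL3A1 and LUM and the leukocyte marker PTPRC were at 0 in all bulk libraries and in most sorted ones, whereas LYZ, listed as a leukocyte marker, had 174 to 441 TPM in sorted and 1801 to 1962 TPM in bulk libraries.

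Cell-cycle genes peaked in different fractions in the 2 replicate numbers. PLK1, a mitotic kinase, had 9.31 TPM in G1, 13.1 in S1, 25.4 in S2, 34.4 in S3, 59.3 in S4 and 64.04 in G2 in replicate 3. PLK1 in replicate 2 had 10.2 TPM in G1, 7.71 in S1, 21.3 in S2, 51.2 in S3, 39.1 in S4 and 24.2 in G2. Its highest library was thus G2 in replicate 3 but S3 in replicate 2, where the G2 library lay below S3 and S4. CCNB1, the mitotic cyclin B1, likewise had 75.1 TPM in G2 replicate 3, against 71.9 in S4, and 27.5 TPM in G2 replicate 2, against 49.3 in S4. CCNE1, which drives S-phase entry, had 14.7 TPM in G1, 14.4 in S1 and 12.8 in S2 of replicate 3, and 9.43 TPM in S2 of replicate 2, where S2 was its highest fraction.

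**Figure D1:**
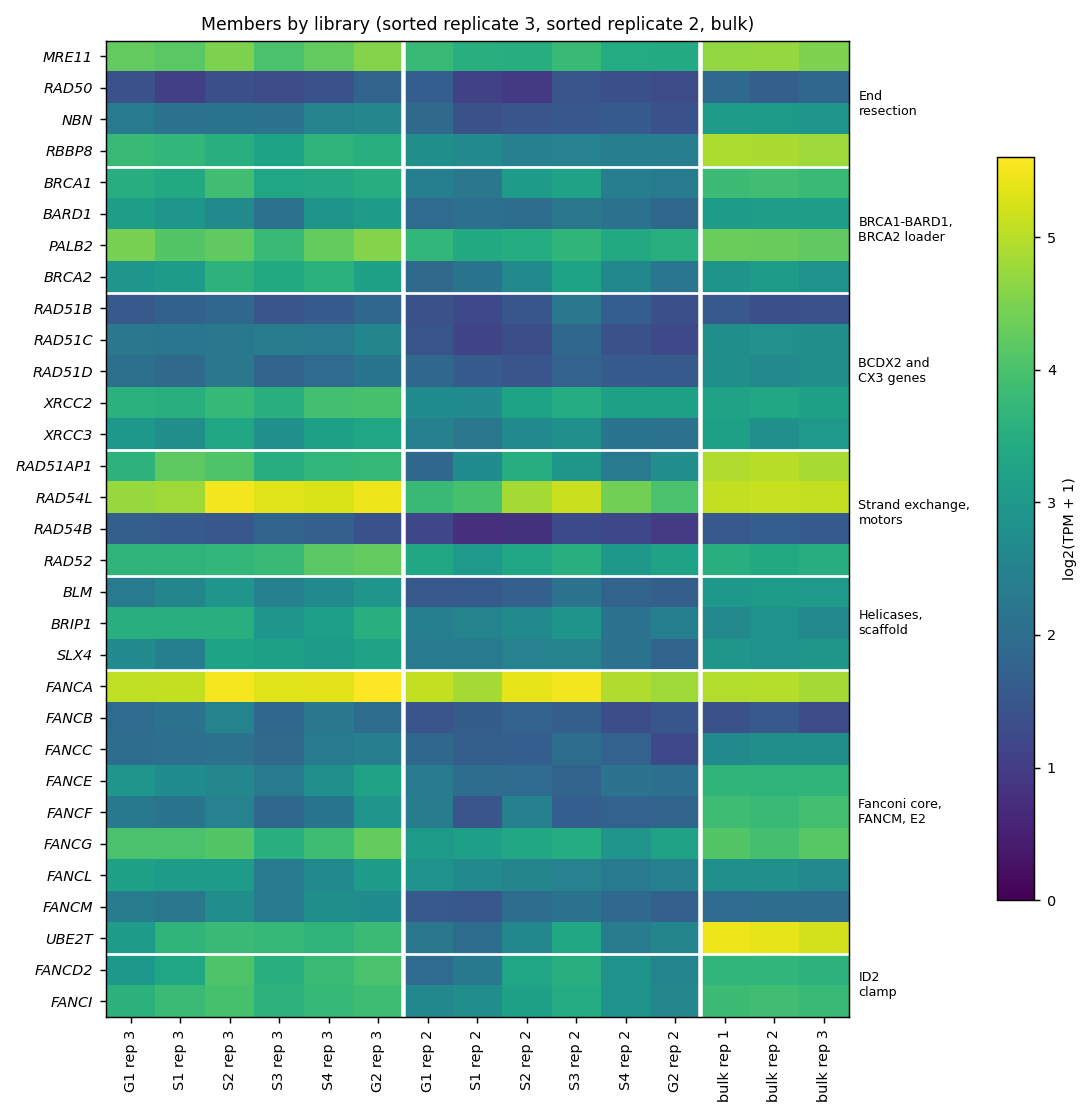
Level of each of the 31 genes (rows, grouped by sub-complex) in each library (columns) as log2(TPM + 1), with the 6 sorted fractions of replicate 3 on the left, those of replicate 2 in the middle and the 3 bulk libraries on the right. FANCA and RAD54L are the brightest rows of the sorted libraries, UBE2T the brightest of the bulk ones, and most rows are brighter in replicate 3 than in replicate 2.

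Whether any member was called between sorted fractions depended on the fit. In the fit of log2(TPM + 1) that leaves out the replicate number, 0 members and few of all genes were called. In its test of any difference among the 6 fractions 0 of 31 members were called, as were 3 of 17022 genes (0.0176%; limma on log2(TPM + 1), Benjamini-Hochberg adjusted p under 0.05). Likewise 0 members were called for S1 to S4 against G1 (0% of all genes), for G2 against G1 (0.00587%), for G2 against S (0.00587%) and for the slope over S1 to S4 (0%). At an unadjusted p under 0.05 there were also 0 members in each of these limma tests, against 5.23% of all genes for S against G1, 2.76% for G2 against G1, 1.7% for G2 against S and 2.94% for the slope. With recovered reads in limma voom, again without the replicate number, 0 members were called at an adjusted p under 0.05 and 4 (FANCD2, RAD54L, BRCA2 and FANCA) had an unadjusted p under 0.05 for S against G1, all with S above G1, against 4.61% of all genes. With recovered reads and the replicate number as a block, 5 members rose in S against G1, FANCD2 by a log2 difference of 1.16, BRCA2 by 0.88, RAD54L by 0.85, FANCI by 0.55 and FANCA by 0.40 (limma voom, adjusted p under 0.05; 2.29% of all genes called). That fit also called 5 members for any difference among the fractions (4% of all genes) and 2 for the slope, where FANCL and BRIP1 fell (4.98%), whereas the block on log2(TPM + 1) called 0. Each fraction has 2 libraries, 1 of each replicate number.

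The log2 differences on TPM, none of them called in the fit without the replicate number, differed in size and sign between the groups of genes. Both clamp genes and 3 of 4 strand-exchange genes lay above 0 for S against G1, and all 4 end-resection genes lay below. Of all 17022 genes tested, 4073 lay above 0 and 12947 below, so most genes shared the side of the end-resection genes. The log2 difference of S1 to S4 over G1 was 0.87 ± 0.47 for FANCD2 (log2 units ± SE, limma), 0.65 ± 0.43 for RAD54L, 0.62 ± 0.55 for RAD51AP1 and 0.61 ± 0.42 for BRCA2. At the other end it was −0.37 ± 0.25 for FANCL and −0.33 ± 0.37 for FANCE. Over the 31 genes 18 differences were above 0 and 13 below, with a median of 0.02, beside −0.20 over all genes tested. With TPM rescaled to protein-coding genes 22 were above 0 and 9 below, with a median of 0.21. Beside it, the median was −0.04 over the 13492 protein-coding genes tested on that scale, a smaller set than the 17022. With a single G1 library left, the FANCD2 difference was 0.36 without G1 replicate 2 and 1.39 without G1 replicate 3. The median over members was −0.24 and 0.33 in the same order. Those fits set S libraries of both numbers against G1 of a single number, so they also carry the difference between the numbers. Within a number, FANCD2 stood at 0.71 in replicate 3 and 1.04 in replicate 2, and the medians over members were 0.04 and 0.06.

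FANCD2 (chromosome 3, 10026437 to 10101932, GRCh38) is the clamp subunit whose ubiquitination marks an active Fanconi pathway. FANCD2 in replicate 3 had 6.91 TPM in G1, 8.98 in S1, 15.8 in S2, 10.8 in S3, 13.2 in S4 and 14.9 in G2. FANCD2 in replicate 2 had 2.87 TPM in G1, 3.77 in S1, 8.93 in S2, 10.6 in S3, 6.20 in S4 and 4.77 in G2. All 4 S fractions lay above G1 in both numbers, with the peak at 2.29 times G1 in S2 of replicate 3 and at 3.70 times G1 in S3 of replicate 2. The values of the 2 groups overlap across the numbers, since G1 of replicate 3 exceeded S1 and S4 of replicate 2, and the limma adjusted p was 0.816 without the replicate number. FANCI, its partner in the clamp, had 11.1 TPM in G1, 13.2 in S1, 14.7 in S2, 11.4 in S3, 12.5 in S4 and 13.5 in G2 in replicate 3. FANCI in replicate 2 had 5.17 TPM in G1, 5.66 in S1, 8.27 in S2, 9.85 in S3, 6.35 in S4 and 5.04 in G2. It too had every S fraction above G1 within each number, with a smaller log2 difference of 0.32 ± 0.44.

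RAD54L (chromosome 1, 46247688 to 46278473) encodes the RAD54 motor that acts on the template duplex during strand exchange. RAD54L in replicate 3 had 25.6 TPM in G1, 26.9 in S1, 44.3 in S2, 38.9 in S3, 37.9 in S4 and 42.7 in G2. RAD54L in replicate 2 had 12.8 TPM in G1, 14.6 in S1, 27.7 in S2, 34.5 in S3, 20.3 in S4 and 14.9 in G2. G1 was its lowest fraction in both numbers. RAD51AP1 (chromosome 12, 4538890 to 4560047), which promotes strand pairing, had 11.3 TPM in G1, 17.6 in S1, 15.7 in S2, 10.2 in S3, 11.98 in S4 and 12.2 in G2 in replicate 3. RAD51AP1 in replicate 2 had 2.70 TPM in G1, 5.57 in S1, 10.3 in S2, 6.79 in S3, 3.998 in S4 and 5.72 in G2. Its G1 library was the lowest in replicate 2 only, while S3 was the lowest in replicate 3.

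The 250 bases before the annotated start of the 3 genes with the largest S-phase differences are shown (RefSeq promoters, GRCh38.p14, plus strand, chr3:10026187-10026436, chr1:46247438-46247687 and chr12:4538640-4538889 in that order). Overlap of these windows with other genes was not checked. Capitals mark the E2F-type letters TTCCCGC or TTGGCGC and the box CCAAT, each searched on both strands.
FANCD2: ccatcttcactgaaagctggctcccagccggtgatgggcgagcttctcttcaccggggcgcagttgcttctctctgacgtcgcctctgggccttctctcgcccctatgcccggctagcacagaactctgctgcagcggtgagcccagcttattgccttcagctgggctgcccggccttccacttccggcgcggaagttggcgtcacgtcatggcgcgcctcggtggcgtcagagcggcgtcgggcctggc
RAD54L: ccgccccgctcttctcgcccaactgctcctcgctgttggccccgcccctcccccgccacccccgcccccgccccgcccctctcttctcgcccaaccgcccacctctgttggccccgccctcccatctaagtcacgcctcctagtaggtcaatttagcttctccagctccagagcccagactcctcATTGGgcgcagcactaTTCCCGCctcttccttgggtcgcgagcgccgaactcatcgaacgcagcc
RAD51AP1: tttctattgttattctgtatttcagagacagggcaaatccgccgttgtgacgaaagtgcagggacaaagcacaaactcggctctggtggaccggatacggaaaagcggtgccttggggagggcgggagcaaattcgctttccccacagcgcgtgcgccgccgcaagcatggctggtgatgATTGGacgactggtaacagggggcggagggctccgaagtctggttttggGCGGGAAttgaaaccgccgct
RAD54L held TTCCCGC with its first base 49 bases before the start and an inverted CCAAT at 65 bases, and RAD51AP1 held both boxes inverted, at 21 and 70 bases, while the FANCD2 window held none of these letters. Of the 28 members with a promoter in the table, 8 (28.6%) held the 7-letter E2F core, against 7.81% of 35116 promoters, and 11 (39.3%) held CCAAT, against 32.0%. The 7-letter core was chosen after a search for the 8-letter spellings TTTCCCGC, TTTCGCGC, TTTGCCGC and TTTGGCGC had found 2 of 28 members (7.14%), against 2.79% of all promoters. The cell-cycle box CHR (TTTGAA or TTCGAA) stood in 3 of the 28 members (10.7%), against 14.3% of all promoters. These are descriptions of letters, not of binding. The 35116 promoters were not limited to protein-coding or tested genes, as the members are, so the shares compare unlike sets.

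**Figure D2:**
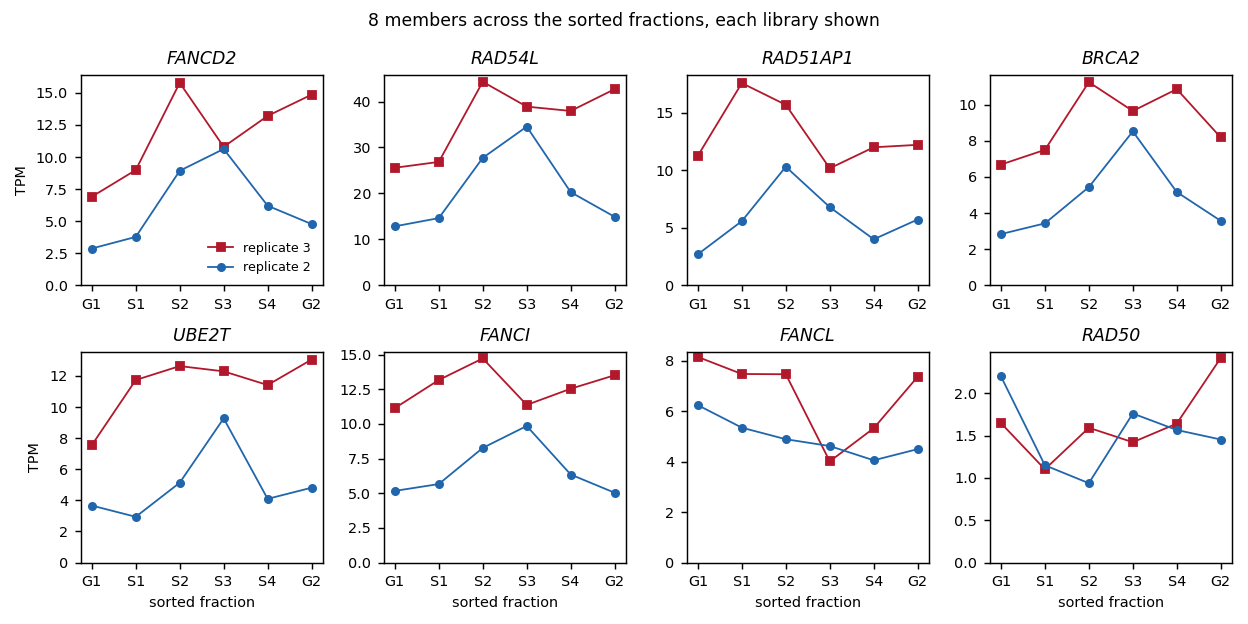
TPM of 8 members in each sorted fraction, in cell-cycle order, with 1 library per point, replicate 3 as red squares and replicate 2 as blue circles. FANCD2, RAD54L, BRCA2 and FANCI had all 4 S fractions above the G1 library of their own number, FANCL and RAD50 had all 4 below it, and replicate 3 lay above replicate 2 for most points.

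BRCA1, BARD1, PALB2 and BRCA2 act between resection and strand exchange. BRCA2, which binds PALB2 and single-stranded DNA, had 6.68 TPM in G1, 7.49 in S1, 11.2 in S2, 9.64 in S3, 10.9 in S4 and 8.18 in G2 in replicate 3. BRCA2 in replicate 2 had 2.84 TPM in G1, 3.43 in S1, 5.43 in S2, 8.52 in S3, 5.16 in S4 and 3.57 in G2. It was the one gene of the 4 with every S fraction above G1 in both numbers. BRCA1 (chromosome 17, 43044295 to 43170327), the ubiquitin ligase that promotes resection and binds PALB2, had 10.2 TPM in G1, 9.56 in S1, 13.9 in S2, 9.005 in S3, 9.38 in S4 and 10.2 in G2 in replicate 3. BRCA1 in replicate 2 had 4.38 TPM in G1, 3.64 in S1, 7.39 in S2, 8.43 in S3, 4.30 in S4 and 3.90 in G2. Only S2 of replicate 3 stood out from its own number, while in replicate 2 both S2 and S3 did. PALB2, the bridge between BRCA1 and BRCA2, had 21.1 TPM in G1, 16.3 in S1, 17.8 in S2, 12.7 in S3, 18.5 in S4 and 22.6 in G2 in replicate 3. PALB2 in replicate 2 had 12.02 TPM in G1, 9.52 in S1, 10.03 in S2, 11.7 in S3, 9.61 in S4 and 10.6 in G2. Here every S fraction lay below the G1 library of its number, and the log2 difference of S over G1 was −0.29 ± 0.38. BARD1, the BRCA1 partner, spanned 3.31 to 7.79 TPM in replicate 3 and 2.73 to 3.77 TPM in replicate 2, with its lowest replicate 3 library (S3) inside the replicate 2 range.

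The 4 end-resection genes had S over G1 log2 differences of −0.29 (RAD50) to −0.13 (MRE11) on TPM, around the median of −0.20 over all genes tested. After rescaling to protein-coding genes MRE11 was at 0.05. MRE11, the nuclease of the MRN complex, had 18.1 TPM in G1, 17.02 in S1, 21.7 in S2, 14.9 in S3, 18.004 in S4 and 22.6 in G2 in replicate 3. MRE11 in replicate 2 had 12.9 TPM in G1, 10.7 in S1, 10.2 in S2, 12.9 in S3, 9.97 in S4 and 9.68 in G2. RBBP8, the CtIP protein that starts resection with MRN, had 12.7 TPM in G1, 12.1 in S1, 10.6 in S2, 8.49 in S3, 11.5 in S4 and 10.5 in G2 in replicate 3. RBBP8 in replicate 2 had 5.94 TPM in G1, 5.46 in S1, 4.39 in S2, 4.57 in S3, 4.30 in S4 and 4.27 in G2. G1 was the highest fraction of RBBP8 in both numbers. RAD50, the ATPase of MRN, was the least abundant of the 4 per length, at 1.65 TPM in G1, 1.10 in S1, 1.59 in S2, 1.42 in S3, 1.64 in S4 and 2.42 in G2 in replicate 3. RAD50 in replicate 2 had 2.20 TPM in G1, 1.15 in S1, 0.937 in S2, 1.76 in S3, 1.57 in S4 and 1.45 in G2. Every S fraction of RAD50 lay below the G1 library of its number, also after rescaling to protein-coding genes, where it was the only member that did so. NBN, the MRN subunit that recruits the ATM kinase, spanned 3.36 to 5.07 TPM in replicate 3 and 1.62 to 2.82 TPM in replicate 2.

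RAD51B, RAD51C, RAD51D and XRCC2 form the BCDX2 complex, and RAD51C and XRCC3 form CX3. XRCC2 had 11.03 TPM in G1, 10.5 in S1, 12.5 in S2, 10.8 in S3, 14.2 in S4 and 14.7 in G2 in replicate 3. XRCC2 in replicate 2 had 5.64 TPM in G1, 5.47 in S1, 8.57 in S2, 10.1 in S3, 8.07 in S4 and 8.09 in G2. XRCC3, which pairs with RAD51C, had 6.91 TPM in G1, 5.80 in S1, 9.19 in S2, 5.98 in S3, 8.15 in S4 and 8.86 in G2 in replicate 3. XRCC3 in replicate 2 had 4.51 TPM in G1, 3.69 in S1, 5.43 in S2, 5.97 in S3, 3.43 in S4 and 3.32 in G2. The 2 genes peaked in different fractions, XRCC2 in G2 of replicate 3 and XRCC3 in S2 of the same number, and both peaked in S3 of replicate 2. RAD51B, RAD51C and RAD51D stayed between 1.24 and 4.93 TPM in all 12 sorted libraries. RAD51B was highest in the S3 library of replicate 2, at 3.74 TPM, and that library was above all 6 libraries of replicate 3.

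RAD52, a single-strand annealing protein, and RAD54B, a second RAD54-type motor, complete the strand-exchange group. RAD52 had 11.4 TPM in G1, 11.5 in S1, 12.1 in S2, 12.8 in S3, 16.9 in S4 and 18.2 in G2 in replicate 3. RAD52 in replicate 2 had 9.24 TPM in G1, 7.03 in S1, 8.86 in S2, 10.4 in S3, 6.88 in S4 and 8.31 in G2. The S4 and G2 libraries of replicate 3 stood above all others. RAD54B was among the lowest genes of the set, at 1.68 to 2.51 TPM in replicate 3 and 0.720 to 1.40 TPM in replicate 2. Among the helicases and the scaffold, BRIP1 (FANCJ), a helicase that binds BRCA1, had 10.4 TPM in G1, 10.7 in S1, 10.5 in S2, 6.71 in S3, 7.98 in S4 and 10.6 in G2 in replicate 3. BRIP1 in replicate 2 had 4.31 TPM in G1, 4.64 in S1, 5.38 in S2, 6.48 in S3, 3.38 in S4 and 4.38 in G2. SLX4 (FANCP), which holds the nucleases that cut crosslinks and junctions, had 5.53 TPM in G1, 4.31 in S1, 8.45 in S2, 8.12 in S3, 7.34 in S4 and 8.30 in G2 in replicate 3. SLX4 in replicate 2 had 4.05 TPM in G1, 3.90 in S1, 4.58 in S2, 4.70 in S3, 3.41 in S4 and 2.53 in G2. BLM, which dissolves double Holliday junctions, spanned 3.92 to 6.55 TPM in replicate 3 and 1.97 to 3.42 TPM in replicate 2, and every S fraction lay above G1 in both numbers.

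The core complex held FANCA, the gene of the set with the highest median TPM in the sorted libraries. FANCA, a core subunit that binds FANCG, had 32.3 TPM in G1, 32.8 in S1, 44.95 in S2, 38.9 in S3, 39.8 in S4 and 47.6 in G2 in replicate 3. FANCA in replicate 2 had 33.3 TPM in G1, 27.7 in S1, 40.8 in S2, 44.1 in S3, 29.4 in S4 and 26.9 in G2. Its 2 replicate numbers overlapped. FANCG had 14.9 TPM in G1, 15.05 in S1, 16.3 in S2, 10.8 in S3, 13.6 in S4 and 18.3 in G2 in replicate 3. FANCG in replicate 2 had 7.25 TPM in G1, 7.91 in S1, 9.32 in S2, 10.1 in S3, 6.57 in S4 and 8.41 in G2. FANCL, the ubiquitin ligase of the complex, had 8.16 TPM in G1, 7.48 in S1, 7.47 in S2, 4.01 in S3, 5.33 in S4 and 7.37 in G2 in replicate 3. FANCL in replicate 2 had 6.24 TPM in G1, 5.35 in S1, 4.89 in S2, 4.62 in S3, 4.06 in S4 and 4.50 in G2. G1 was the highest fraction of FANCL in both numbers. UBE2T, the E2 enzyme that works with FANCL, had 7.55 TPM in G1, 11.7 in S1, 12.6 in S2, 12.3 in S3, 11.4 in S4 and 13.1 in G2 in replicate 3. UBE2T in replicate 2 had 3.67 TPM in G1, 2.94 in S1, 5.13 in S2, 9.27 in S3, 4.10 in S4 and 4.81 in G2. The E2 and the ligase lay on opposite sides of 0 for S over G1, at 0.48 ± 0.55 for UBE2T and −0.37 ± 0.25 for FANCL, and neither was called for it. FANCB, FANCC, FANCE, FANCF and FANCM, the other core subunits and the DNA translocase that recruits them, stayed between 1.34 and 8.30 TPM in the sorted libraries.

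Set against the G1 library of the same replicate number, 5 members had all 4 S fractions higher in both numbers (BRCA2, RAD54L, BLM, FANCD2 and FANCI), as did 2.39% of all genes tested. Another 5 had all 4 lower in both (RBBP8, RAD50, PALB2, FANCE and FANCL), as did 15.1% of all genes. After rescaling to protein-coding genes 11 members were higher in all (5.07% of the genes) and 1 was lower in all (8.29%). The highest of the 6 fractions was S2 or S3 in both numbers for 11 members, against 8.39% of all genes: BRCA1, BRCA2, RAD51B, XRCC3, RAD54L, RAD54B, BLM, SLX4, FANCB, FANCD2 and FANCI. These counts over members are descriptions, without a test.

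The peaks fell in different fractions in the 2 numbers, as those of PLK1 and CCNB1 did. In replicate 2 the highest fraction was S3 for 20 members, G1 for 8 and S2 for 3. In replicate 3 it was G2 for 13, S2 for 11, G1 for 3, S1 for 2 and S3 and S4 for 1 each. The same fraction was highest in both numbers for 4 members. The highest fraction within each number was not counted over all genes. Whether these counts are particular to the members therefore cannot be told. Between G2 and G1 the medians over members went opposite ways, at 0.30 (log2) within replicate 3 and −0.14 within replicate 2, beside 0.23 and −0.39 over all genes tested. Leaving out G2 replicate 2 gave a median G2 over G1 difference of 0.58 and leaving out G2 replicate 3 one of −0.44, against 0.02 with all libraries. These fits set G2 of a single number against G1 of both, so they also carry the difference between the numbers. Between S and G1 the 2 medians were 0.04 within replicate 3 and 0.06 within replicate 2, beside −0.06 and −0.34 over all genes tested. The sign was the same in both numbers for 26 members, 16 above 0 (12.3% of all genes tested) and 10 below (49.7%).

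**Figure D3:**
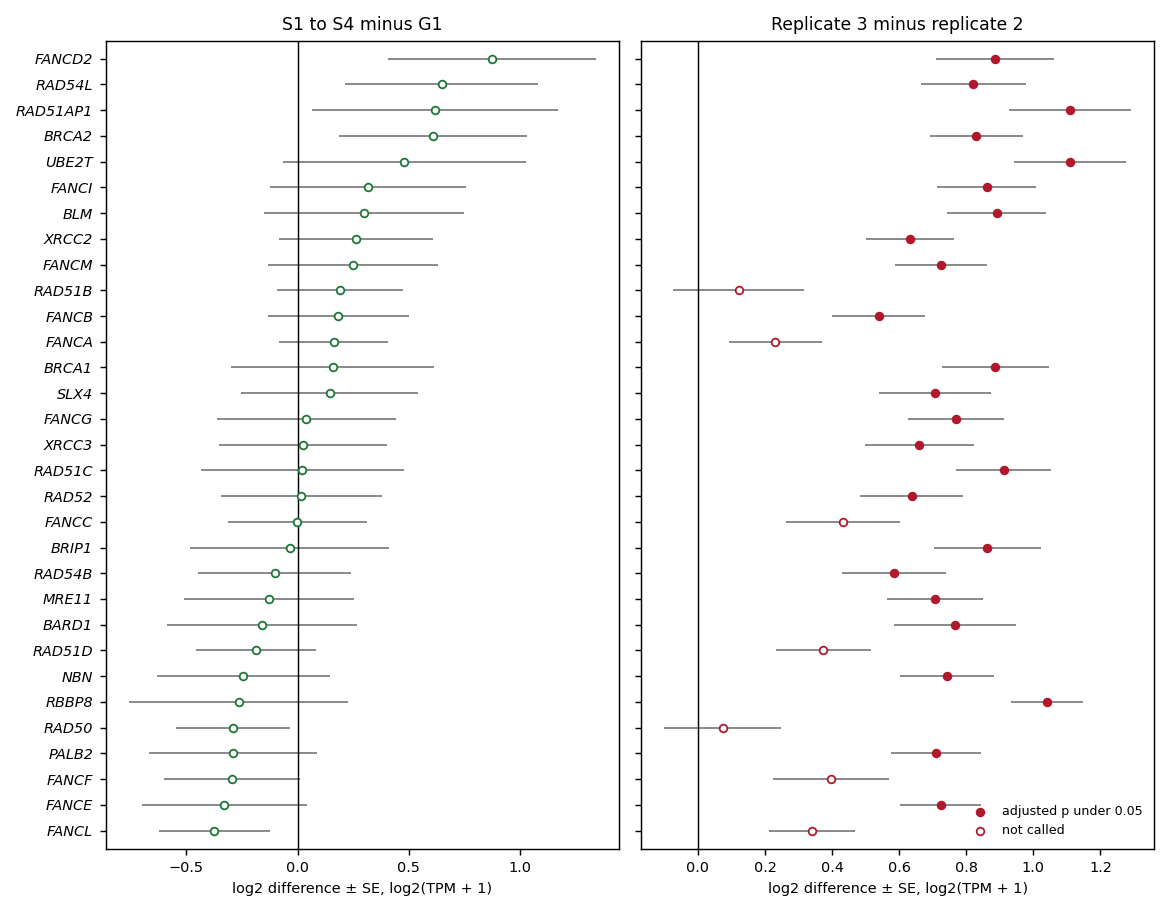
Log2 difference of each member with its SE from limma on log2(TPM + 1), for S1 to S4 over G1 on the left and for replicate 3 over replicate 2 on the right, both in the order of the left panel, with filled points for an adjusted p under 0.05. No point is filled on the left, and 24 of 31 are filled on the right, all above 0.

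More members were called between the 2 replicate numbers than between the fractions. The tests differ in power, since each number has 6 libraries and each fraction 2, so the counts do not compare the sizes of the differences. The 6 libraries of a number are 6 sorted fractions, and no label says that they are independent samples of it. The p-values between the numbers thus measure how alike the difference was across fractions, not how far separate cultures vary. In replicate 3 against replicate 2, with the fraction as a term in the fit, 24 of 31 members rose and none fell (25% of all genes were called, 18% higher and 6.99% lower; limma, adjusted p under 0.05). All 31 differences were above 0, with a median of 0.72, beside 0.16 over all genes tested. Every gene of the BRCA1-BARD1 and BRCA2 group (4 of 4), the strand-exchange group (4 of 4), the helicases and scaffold (3 of 3) and the clamp (2 of 2) was called, as were 3 of 4 resection genes, 3 of 5 BCDX2 and CX3 genes and 5 of 9 core-complex genes.

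The largest differences were those of RAD51AP1 and UBE2T. RAD51AP1 had 10.2, 12.1 and 17.6 TPM (lowest, median and highest of 6) in replicate 3 and 2.70, 5.65 and 10.3 TPM in replicate 2, with the S2 library of replicate 2 at 10.3 TPM inside the replicate 3 range (log2 difference 1.11 ± 0.18, limma adjusted p = 0.0044). UBE2T had 7.55, 12.02 and 13.1 TPM (lowest, median and highest of 6) in replicate 3 and 2.94, 4.45 and 9.27 TPM in replicate 2 (log2 difference 1.11 ± 0.17, limma adjusted p = 0.00332). RBBP8 had 8.49, 11.1 and 12.7 TPM (lowest, median and highest of 6) in replicate 3 and 4.27, 4.48 and 5.94 TPM in replicate 2, so its 2 sets of libraries did not overlap, and it had the lowest limma adjusted p of the set, 0.000694, at a log2 difference of 1.04 ± 0.11. RAD51C did not overlap either, with 3.60, 3.88 and 4.93 TPM (lowest, median and highest of 6) in replicate 3 and 1.24, 1.59 and 2.72 TPM in replicate 2 (log2 difference 0.91 ± 0.14, limma adjusted p = 0.00372). In all, 16 of 31 members had every replicate 3 library above every replicate 2 library, as did 7.14% of all genes. The 7 members not called were RAD51B, RAD50, FANCA, FANCL, RAD51D, FANCF and FANCC, with log2 differences of 0.07 (RAD50) to 0.43 (FANCC). Within the fractions, 24 members were higher in replicate 3 in all 6, as were 19.8% of all genes tested. Rescaled to protein-coding genes, 29 members rose and none fell (33.7% of the genes higher, 12.3% lower).

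Other values moved with the replicate number. The 7 hepatocyte markers tested fell in replicate 3 (7 of 7 called by limma, median log2 difference −0.81), and the 8 summed to 3507 to 5565 TPM in replicate 3 and 6946 to 10536 TPM in replicate 2. Mitochondrial transcripts took 2.22% to 9.97% of TPM in replicate 3 and 8.66% to 16.7% in replicate 2. The fibroblast and leukocyte lists summed to 1.18 to 2.26 and 175 to 210 TPM in replicate 3 and to 2.08 to 5.19 and 338 to 443 TPM in replicate 2, and 1 gene carried most of each sum. PDGFRB had 1.08 to 1.77 TPM in replicate 3 and 1.75 to 4.70 TPM in replicate 2, and LYZ had 174 to 209 TPM in replicate 3 and 337 to 441 TPM in replicate 2, while COL3A1, LUM and PTPRC were at or near 0 in both. Their part in the result was not tested. Fewer cells of a stage and less RNA per cell cannot be told apart in such libraries.

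Against bulk cells, the direction for the sorted libraries depended on what the values were scaled to. On TPM as deposited 13 of 31 members fell and none rose (80.9% of 17174 genes called, 57.8% lower and 23.1% higher; limma, adjusted p under 0.05), with a median log2 difference of −0.48, beside −0.99 over all genes. Rescaled to protein-coding genes, 28 rose and none fell (55.1% of 13041 protein-coding genes higher, 16.5% lower), with a median of 1.98, beside 0.79 over those genes. Relative to the median of the genes tested on each scale, the members thus lay higher in the sorted libraries, by 0.51 and 1.19. The 17174 genes of the first scale also hold noncoding genes, so the 2 values do not share a reference. The kit, the RNA selected and the sort changed together between these groups and cannot be told apart.

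UBE2T had the lowest difference of the set on both scales. It had 2.94, 8.41 and 13.1 TPM (lowest, median and highest of 12) in the sorted libraries and 43.2, 41.0 and 36.5 TPM in the bulk ones (log2 difference −2.30 ± 0.40, limma adjusted p = 0.000227). RBBP8 had 4.27, 7.21 and 12.7 TPM in the sorted libraries and 28.9, 28.7 and 26.6 TPM in the bulk ones (log2 difference −1.81 ± 0.36, limma adjusted p = 0.000615). FANCF, the small adaptor of the core complex and a gene of 1 exon, had 1.80, 3.48 and 6.61 TPM in the sorted libraries and 13.6, 12.7 and 13.9 TPM in the bulk ones (log2 difference −1.73 ± 0.22, limma adjusted p = 1.36e-05). In none of these 3 did the sorted and bulk libraries overlap on TPM, where all sorted libraries lay below all bulk ones for 10 of 31 members and for 54.3% of all genes. On the protein-coding scale the differences of these 3 were above 0. FANCB had 1.53, 2.52 and 4.64 TPM in the sorted libraries and 1.63, 1.94 and 1.43 TPM in the bulk ones, the highest difference of the set at 0.43 ± 0.23, which was not called (limma adjusted p = 0.107). FANCA had 26.9, 36.1 and 47.6 TPM in the sorted libraries and 29.9, 30.7 and 27.9 TPM in the bulk ones, with overlapping groups and a log2 difference of 0.27 ± 0.16.

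On the protein-coding scale FANCA led with a log2 difference of 2.85, followed by FANCB at 2.74 and BRIP1 at 2.69, and UBE2T at 0.13, RBBP8 at 0.63 and RAD51AP1 at 0.76 were not called. Across the 31 members the log2 difference on TPM had a Spearman rho of 0.35 with the length of the gene in the genome and of 0.32 with the length used for TPM, a description over genes that share the same libraries. The longest gene, RAD51B, spans 863318 bases and the shortest, FANCF, 3291 bases. RAD51C and RAD51D were among the 13 members called lower on TPM. RAD51C had 1.24, 3.16 and 4.93 TPM in the sorted libraries and 5.91, 6.12 and 5.77 TPM in the bulk ones (log2 difference −0.92 ± 0.33, limma adjusted p = 0.0233). The log2 difference of RAD51D was −0.90 ± 0.19 (limma adjusted p = 0.000932). On TPM 4 of 4 resection genes (median −0.89) and 0 of 2 clamp genes (median −0.49) were called, beside 80.9% of all genes with a median of −0.99. On the protein-coding scale 3 of 4 resection genes (median 1.38) and 2 of 2 clamp genes (median 1.99) were called, all higher, beside 55.1% of the genes higher. The 2 groups were not tested against each other.

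**Figure D4:**
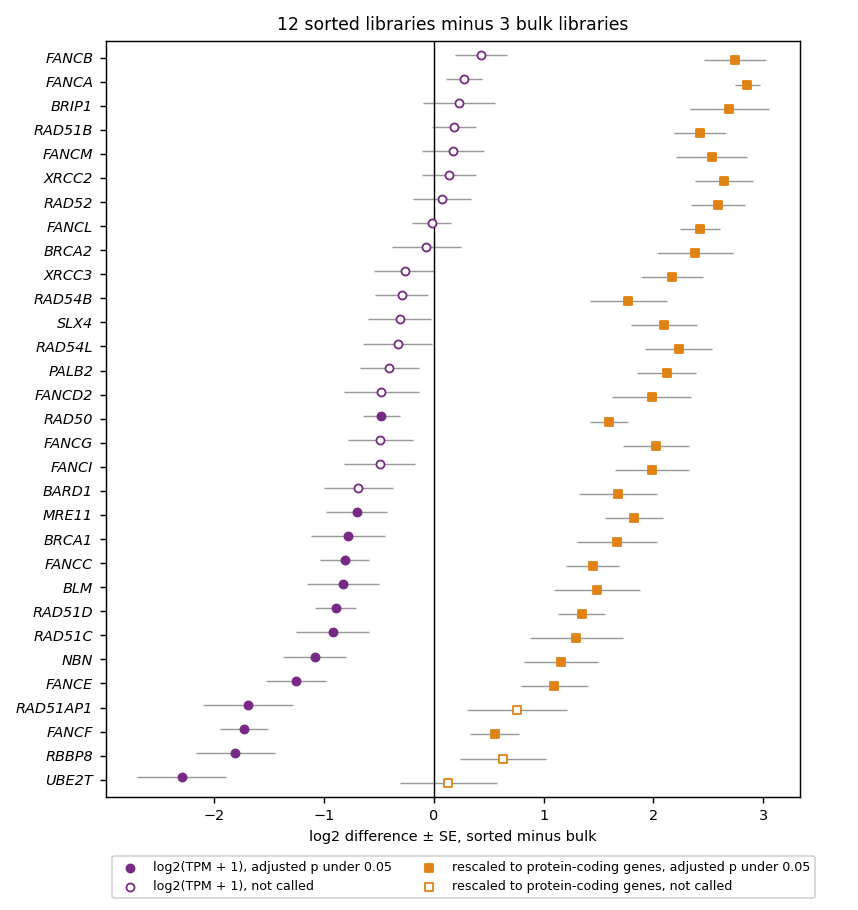
Log2 difference of the 12 sorted over the 3 bulk libraries for each member, with its SE from limma, on log2(TPM + 1) as purple circles and after rescaling to protein-coding genes as orange squares, with filled points for an adjusted p under 0.05. On the first scale 13 points are filled, all below 0, and on the second 28 are filled, all above 0.

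A further 44 HR and Fanconi genes outside the set were read beside it. In the sorted libraries 38 passed the filter. In the log2(TPM + 1) fit without the replicate number 0 were called in any fraction comparison (limma). At an unadjusted p under 0.05 there was 1, for the slope over S1 to S4. Recovered reads with the replicate block, the only fit that called members between fractions, were not read for these genes. In replicate 3 against replicate 2, 16 of the 38 rose and 0 fell (18% of all genes higher, 6.99% lower), with a median of 0.37. The most abundant in sorted cells were PSMC3IP, a DMC1 accessory factor, at 20.9 ± 10.1 TPM, UIMC1 (RAP80), which brings BRCA1 to ubiquitin chains, at 20.5 ± 6.08 TPM, and CENPX (MHF2), the FANCM partner, at 19.6 ± 6.86 TPM (SD, n = 12). The order differed between the numbers: PSMC3IP was the first in replicate 3, at 29.6 ± 5.87 TPM, and the fourth in replicate 2, at 12.1 ± 3.09 TPM, where UIMC1 led at 15.7 ± 3.21 TPM (SD, n = 6 each). Sorted over bulk, 27 of 39 fell and 3 rose on TPM, beside 57.8% of all genes lower and 23.1% higher. After rescaling to protein-coding genes 26 of 44 rose and 2 fell, beside 55.1% of the genes higher and 16.5% lower.

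Of the 31 members, 20 share genome positions with another RefSeq gene, among them BRCA1 with NBR2, FANCA with ZNF276, FANCI with POLG, FANCL with VRK2, RAD54L with LRRC41, XRCC3 with KLC1 and RAD51D with a readthrough transcript. The setting for strand and for shared reads is not stated in the labels, so levels of these genes may include reads of the neighbour.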

How the data were processed

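RNA was measured in 15 HepG2 libraries, 12 sorted and 3 bulk; Repli-seq data were not used. Per the labels' protocols, sorted cells were prepared with a stranded ultra-low-input total RNA kit and bulk cells with a stranded mRNA kit. For alignment and trimming the submitters' processing notes list the aligners HISAT2 and BWA, SAMtools, Trimmomatic and cutadapt, with hg38 as the build and no versions. The counter and the gene annotation are not given in the sources used.

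The authors deposited log2 values, read as log2(TPM + 1) because they summed to 1e+06 in every library after back-transformation. Symbols were matched for 61481 of 78932 identifiers, and positions and promoters come from RefSeq tables (GRCh38.p14). Read counts were recovered from the steps of the TPM values (whole within 0.01) for 50308 of the 50310 genes with values above 0 in 3 or more libraries. TPM divides by a gene length that was recovered in the same way, so comparing genes depends on the annotation behind it. Intervals of counts were not drawn, and depth enters through the recovered reads. The test had been planned for TPM files and was run on the deposited log2 scale.

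Genes averaging 1 TPM or more were tested with limma 3.58.1 in R 4.3.3, with an intensity trend, on log2(TPM + 1) with a pseudocount of 1, which understates changes of low genes. P-values were Benjamini-Hochberg adjusted over all genes tested, at a threshold of 0.05. The 6 fractions formed 1 fit without the replicate number, which was a term where the 2 numbers were compared and in the block, and the sorted and bulk libraries formed another. The alternatives were a pseudocount of 0.1, no filter or a mean TPM of at least 5, values rescaled to protein-coding nuclear genes, median-ratio scaling, no intensity trend, recovered reads with limma voom, a replicate block and each library left out. Same-numbered libraries deviated together: across 17022 genes the difference of replicate 3 and replicate 2 correlated between fractions with r of 0.31 to 0.38 over 15 pairs of fractions, a link read from the data and not from the labels. The recovery of reads and the log2(TPM + 1) fit without the replicate number, for G2 against G1, were tested on simulated data. These data held no difference between replicate numbers, and the other fits were not tested in this way.

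The members, the sub-complexes and the other gene lists were chosen with earlier results of these data known. Described with their levels in the libraries are members called in any comparison, those with the largest and smallest differences and the 2 most abundant of each sub-complex. Other genes are the cell-cycle checks, the cell type markers and up to 4 abundant pathway genes. A further pathway gene is not reported here, and the list of other HR and Fanconi genes was counted without it.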

Additional observations from a re-analysis of the deposited data

How the results depend on the processing

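Among the fraction comparisons no member was called under any alternative but 1. Recovered reads with the replicate block called 5 members for any difference (RAD54L, FANCL, FANCD2, BRCA2 and FANCA; 678 of all genes, 4%), 5 for S against G1 (FANCD2, log2 difference 1.16; BRCA2, 0.88; RAD54L, 0.85; FANCI, 0.55; FANCA, 0.40; 389 genes, 2.29%) and 2 for the slope (FANCL, −0.24; BRIP1, −0.22; 845 genes, 4.98%), with 101 genes for G2 against G1. The replicate block on log2(TPM + 1) called 0 members. The labels do not say what a replicate number shares.

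Counts of all genes called were small and moved with the setting. For any difference they were 0 with a mean TPM of at least 5, on the protein-coding scale and on recovered reads, against 3. For S against G1 they were 4 with a pseudocount of 0.1, 2 with median-ratio scaling and 1 without the trend, against 0. For G2 against G1 and G2 against S they were 0 with a mean TPM of at least 5, on the protein-coding scale and on recovered reads, against 1 each. Without the filter they were 0 for G2 against G1 and 2 for G2 against S, which also had 2 with a pseudocount of 0.1, and that pseudocount gave 1 for the slope. For the replicate numbers 2304 genes were called without the filter and 6576 on recovered reads, against 4252.

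For sorted against bulk, 7 members (8947 genes) were called with a mean TPM of at least 5, 28 on the protein-coding scale (median 1.98), 22 with median-ratio scaling (median 0.97) and 24 on recovered reads (median 1.11), against 13 (median −0.48). Called members that turned were, on the protein-coding, median-ratio and recovered-read values in that order, BRCA1 (1.67, 0.68, 0.78), FANCC (1.45, 0.45, 0.62), FANCE (1.10, 0.16, 0.21), RAD51C (1.30, 0.34, 0.47), RAD51D (1.35, 0.37, 0.51), MRE11 (1.83, 0.84, 0.91), RAD50 (1.60, 0.53, 0.89), NBN (1.16, 0.22, 0.30) and BLM (1.49, 0.50, 0.65), and on the first alone FANCF (0.55), RAD51AP1 (0.76), RBBP8 (0.63) and UBE2T (0.13). The cause was not tested.

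Leaving out 1 library in turn gave 0 members called in each fraction comparison, 18 to 24 for the replicate numbers and 8 to 14 for sorted against bulk, with 8 without bulk replicate 1 or bulk replicate 3. Medians over members ran from −0.24 to 0.33 (S against G1), −0.44 to 0.58 (G2 against G1), −0.49 to 0.55 (G2 against S), −0.09 to 0.14 (slope), 0.65 to 0.81 (replicate numbers) and −0.57 to −0.39 (sorted against bulk). Without a sorted library its fraction holds a single replicate number, so the medians between fractions also carry the difference between the numbers. Genes called ran from 0 to 2 for any difference, S against G1, G2 against G1 and G2 against S, 0 to 0 for the slope, 2458 to 4260 for the replicate numbers (2458 without S4 replicate 2) and 12865 to 14029 for sorted against bulk.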

Other observations

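The 18 end-joining genes, which repair breaks without a template, were read beside the set. Recovered reads with the replicate block, the only fit that called members between fractions, were not read for them. For S against G1, 0 of 18 were called (limma, adjusted p under 0.05; 1 at an unadjusted p under 0.05), with 3 log2 differences above 0 and 15 below and a median of −0.19, beside −0.20 over all genes tested. Rescaled to protein-coding genes, 8 were above 0 and 10 below, with a median of −0.02, and on recovered reads 10 were above and 8 below. In replicate 3 against replicate 2, 8 of 18 rose and 0 fell (18% of all genes higher, 6.99% lower), with a median of 0.24. POLQ, the polymerase of theta-mediated end joining, had the largest called difference among the 4 most abundant, at a log2 difference of 1.20 ± 0.17 (limma adjusted p = 0.00257), and averaged 21.2 ± 10.3 TPM in the sorted libraries and 9.49 ± 0.506 TPM in the bulk libraries (SD, n = 12 and n = 3). XRCC5 (Ku80) averaged 53.9 ± 16.3 TPM in the sorted and 357 ± 10.3 TPM in the bulk libraries, and XRCC6 (Ku70) 41.0 ± 6.74 and 497 ± 9.57 TPM. PRKDC, the DNA-dependent kinase they recruit, averaged 22.4 ± 3.21 and 74.0 ± 2.38 TPM. On TPM, XRCC5, XRCC6 and PRKDC fell in sorted against bulk libraries, and POLQ was not called (log2 difference 0.91 ± 0.43, limma adjusted p = 0.0696). Over the 18 genes, 0 rose and 14 fell on TPM, beside 80.9% of all genes called (57.8% lower, 23.1% higher). After rescaling to protein-coding genes 10 rose and 2 fell (median 1.06), beside 55.1% of the genes higher and 16.5% lower.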
